A study of Mus musculus with 16 samples.

Results

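Ribosome footprints of the exon 5 KO Hepa1-6 clone KO1 were compared with those of WT Hepa1-6 cells, as a relative measure of protein synthesis per gene. The comparison uses 4 Ribo-seq samples of the 16 samples in the series, WT replicates 1 and 2 and KO1 replicates 1 and 2. Each of 22392 genes is represented by 1 transcript, the one with the largest sum over the 16 count columns, and 14368 of these genes had a footprint in at least 1 of the 4 samples. Hepa1-6 is a mouse hepatoma cell line. WT cells carry the normal Eef1d gene and KO1 carries a homozygous deletion of its exon 5. Per the methods of the study, KO1 was made with Cas9 and the guide plasmids pS1 and pS4, selected with puromycin and grown from a single cell by limiting dilution. KO1 is therefore 1 clone, and no such cloning is described for the WT cells, so that the deletion and the history of the clone cannot be told apart. All lines were kept in the same medium without further treatment, and the question of the study was whether loss of exon 5 alters translation. The other clones, KO2 (same guides) and KO3 (pS2 and pS4), enter only where KO1 is set against them.

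Ribo-seq digests mRNA that is not covered by ribosomes and sequences the protected fragments, so the number of footprints on a coding sequence follows both the amount of mRNA and how many ribosomes it carries. The counts of a sample are shares of one total, so a change is relative to the other genes and not an absolute rate of protein synthesis. EEF1D is a subunit of EEF1B, the complex that exchanges GDP for GTP on EEF1A, the factor that brings aminoacyl-tRNA to the ribosome. EEF1D is also known to bind kinectin (KTN1), a scaffold protein of the endoplasmic reticulum (ER) membrane, where mRNAs of secreted and membrane proteins are translated. Hepatocytes, the cells from which a hepatoma derives, make plasma proteins such as albumin and apolipoproteins at the ER.

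The deleted exon covers 72 bases, or 24 codons, of chromosome 15, chr15:75900691-75900762 of GRCm38 on the minus strand. It is shown because it is the stretch of mRNA that the KO1 genotype removes.

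Eef1d exon 5: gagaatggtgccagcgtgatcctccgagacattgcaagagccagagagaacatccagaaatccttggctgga

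A group of genes that fell together in KO1, the targets of the transcription factor ATF4, is described later, and stretches of some of their promoters are shown here because they carry the element through which ATF4 acts. ATF4 binds, with a partner, an element written as TGATGNAA, known as the amino acid response element. Promoters of 300 bases, from 250 before the start site to 50 after it, were taken from RefSeq (GRCm38.p6) for 29 of the 33 genes tested in a list of ATF4 targets, and the element was searched on both strands. It was found in 9 of these 29 genes (31.0%) and in 209 of the 8103 tested genes with a promoter (2.58%). The list was drawn up from known ATF4 targets, so this share describes the list and is not a result of these samples. The capitals mark the element in 5 genes whose footprints fell, read 5′ to 3′ along the strand of the gene, and the element lies on the opposite strand in Chac1 and Atf3.

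Asns: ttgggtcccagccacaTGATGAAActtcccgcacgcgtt
Pycr1: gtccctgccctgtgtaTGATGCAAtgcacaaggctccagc
Slc7a11: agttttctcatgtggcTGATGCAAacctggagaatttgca
Chac1: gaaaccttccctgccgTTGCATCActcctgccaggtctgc
Atf3: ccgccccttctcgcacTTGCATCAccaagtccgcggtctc

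With 1 transcript per gene, the WT samples held 3583764 and 2370913 footprint counts and the KO1 samples 4886753 and 1138943. KO1 replicate 2 is the shallowest Ribo-seq sample of the series, with at least 10 counts for 8633 genes, against 10704 in KO1 replicate 1. Between replicates, log2 CPM (footprint counts scaled by TMM to a common total) correlated across genes with Pearson's r of 0.986 in WT (10157 genes) and 0.978 in KO1 (10178 genes), where genes are not independent replicates. Of 8 hepatocyte and hepatoma markers, 7 had enough counts to be tested, among them Alb, Afp, Trf, Hnf4a, Krt8 and Krt18, and Apoa1 was near 0 in all 4 samples. Of the fibroblast markers, Dcn stood at 2229 and 2227 CPM in WT and 2400.1 and 2431 in KO1 (log2 fold change 0.12, standard error 0.063, edgeR adjusted p = 0.179), while Col1a2, Lum and Thy1 were at 0 counts in the 4 samples. Pdgfra, the other fibroblast marker tested, had 11.7 and 10.6 CPM in WT and 7.99 and 8.66 in KO1 (edgeR adjusted p = 0.228). Endothelial markers made up from 4.22e-05% to 0.000351% of all footprints and leukocyte markers from 0.00211% to 0.00374%, and Adgre1, Cd3e, Cdh5, Tek and Emcn were at 0 counts. Of 3 leukocyte markers tested, Csf1r was called higher in KO1 on 20 or fewer counts per sample (log2 fold change 1.98, edgeR adjusted p = 0.00654). Cd14 was called lower (log2 fold change -0.65, edgeR adjusted p = 0.0176), and both calls were lost with DESeq2 (adjusted p = 0.296 and 0.382). The replicates are 2 per line, and p-values measure the spread between these samples.

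Footprints differed between KO1 and WT for 2777 of 10335 genes tested (26.9%), with 1210 higher in KO1 (11.7%) and 1567 lower (15.2%). A gene was called where edgeR's quasi-likelihood test gave a Benjamini-Hochberg adjusted p under 0.05, and "rose" and "fell" are used for called genes only, and a lone number in parentheses after a gene is its log2 fold change of footprints. Most changes were small: the median absolute log2 fold change was 0.59 among called genes and 0.25 among all genes tested. More than 2-fold, 242 genes rose and 348 fell. Both KO1 samples lay beyond both WT samples for 6077 of the genes tested (58.8%). Among called genes this held for 2747 and not for 30. In a called gene, a lack of overlap therefore nearly follows from the call and adds no separate support. When the genes tested were ordered by counts and split into 5 equal groups, 17.2% were called in the group with the fewest counts and 40.5% in that with the most. In bulk samples, fewer cells of a type and less RNA per cell cannot be told apart. DESeq2 called 859 genes (339 higher, 520 lower), and edgeR called 1381 without KO1 replicate 1 and 1581 without WT replicate 1.

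**Figure D1:**
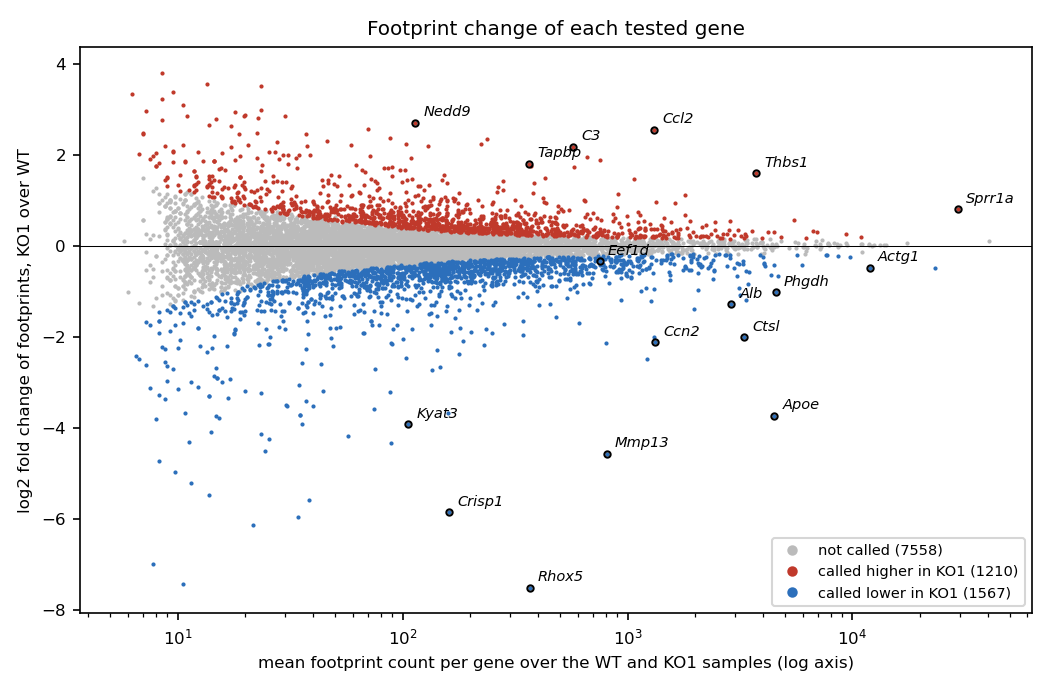
Log2 fold change of footprints in KO1 over WT (vertical axis) against the mean footprint count of each of 10335 genes (log axis), with called genes in colour and some of the genes described in the text labelled. Deeply counted genes such as Apoe, Ctsl, Thbs1 and Sprr1a stand apart from 0, and Eef1d is among the small falls.

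Eef1d itself, whose exon 5 is deleted, had 286 and 273 CPM in WT and 228 and 216 in KO1, and both KO1 samples lay below both WT samples. The fall was small (log2 fold change -0.32, standard error 0.0774, edgeR adjusted p = 0.00104). The call was lost with DESeq2 (adjusted p = 0.0675) and without WT replicate 1 (edgeR adjusted p = 0.0654). Its transcript with the most counts, ENSMUST00000137426.7 (chromosome 15, from 75895488 to 75903556 on the minus strand of GRCm38), does not contain exon 5 in the annotation used here, so no footprint of the deleted codons enters its count in either line. RNA of the same transcript had a log2 fold change of -0.08 (edgeR adjusted p = 0.272). Against the mean of KO2 and KO3, the footprints of Eef1d in KO1 had a log2 difference of -0.02 (edgeR adjusted p = 0.83). That mean stands for neither clone. Normalized over the 8 Ribo-seq samples, Eef1d was at 295 and 280 CPM in KO2 and at 187 and 162 in KO3.

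Of 11 genes listed for the EEF1B complex, elongation factors and ER anchors, 10 were tested, 2 rose and 3 fell (background 11.7% higher, 15.2% lower). Of this list 50% was called, against 26.9% of all genes tested. Most of the list lies in the group of genes with the most counts, where 40.5% were called. DESeq2 called 2 of the list higher and 1 lower. The median log2 fold change was 0.00, the same as over all genes tested. Eef1b2 and Eef1g, the other subunits of the exchange factor, were not called (log2 fold changes 0.00 and 0.01, edgeR adjusted p = 0.974 and 0.922). Eef1b2 had 832 and 774 CPM in WT and 815 and 784 in KO1, and Eef1g had 1535 and 1519.7 in WT and 1598 and 1469 in KO1. The ranges of the lines overlapped for both genes. Vars, the valyl-tRNA synthetase that is bound to EEF1B, rose, with 376 and 381 CPM in WT and 512 and 468 in KO1 (log2 fold change 0.39, standard error 0.0698, edgeR adjusted p = 1.74e-05). Eef1e1, a scaffold protein of the multi-tRNA synthetase complex, fell, with 99.7 and 106 CPM in WT and 82.0 and 76.2 in KO1 (log2 fold change -0.35, standard error 0.104, edgeR adjusted p = 0.00832), and its call was lost with DESeq2 (adjusted p = 0.263) and without either KO1 replicate 1 or WT replicate 2. Of the ER anchors, Rrbp1 fell and Ktn1 was not called. Rrbp1, a ribosome-binding protein of the ER membrane, had 334 and 331 CPM in WT and 257 and 208 in KO1 (log2 fold change -0.46, standard error 0.0793, edgeR adjusted p = 7.75e-06), with no overlap of the lines. Ktn1, kinectin, had 95.5 and 101 in WT and 82.2 and 105 in KO1 (log2 fold change -0.15, standard error 0.108, edgeR adjusted p = 0.336), and KO1 replicate 2 lay above both WT samples. Among the elongation factors, Eef2, which moves the ribosome along by 1 codon, rose (log2 fold change 0.22, standard error 0.0667, edgeR adjusted p = 0.0114), a call that was lost without WT replicate 2 and without KO1 replicate 1 (log2 fold change 0.11, edgeR adjusted p = 0.399). Eef1a1, at 5805 and 5629 CPM in WT and 6071 and 6001 in KO1, and Eif5a were not called (edgeR adjusted p = 0.407 and 0.932), and Eef1a2 had at most 6 counts per sample and was not tested. Per length of coding sequence, Eef1b2 carried 3718 CPM per 1000 codons in WT and Eef1d 515, against 3699.7 and 408 in KO1. The Eef1d transcript kept has 543 codons counted, more than the short isoforms described in the paper have. Its value per length is too low for footprints that come from a short isoform, so the 2 genes cannot be compared by it.

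The 10 largest rises, among called genes with a mean of at least 50 counts and no overlap of the lines, included 2 chemokine genes. Ccl2, a chemokine that attracts monocytes (chromosome 11, from 82035571 to 82037453 on the plus strand of GRCm38), had 108 and 144 CPM in WT and 770.1 and 681 in KO1, a 5.91-fold rise (log2 fold change 2.56, standard error 0.0869, edgeR adjusted p = 2.75e-29). Ccl20, the chemokine of the receptor CCR6, had 5.98 and 7.60 CPM in WT and 39.8 and 40.7 in KO1 (log2 fold change 2.58, standard error 0.219, edgeR adjusted p = 1.02e-13). Both chemokines were higher in each KO1 sample than in either WT sample, as the rule for this group required. C3, the central component of complement, had 71.0 and 61.7 CPM in WT and 323 and 273 in KO1 (log2 fold change 2.19, standard error 0.0963, edgeR adjusted p = 1.46e-24). Nedd9, a scaffold protein of integrin signalling, had the largest log2 fold change of this kind, with 10.3 and 9.72 CPM in WT and 64.2 and 72.7 in KO1 (log2 fold change 2.72, standard error 0.177, edgeR adjusted p = 8.76e-18). For C3 and Nedd9 the replicates of a line lay close to each other compared with the distance between the lines. Mmp9, a gelatinase, rose, with 6.27 and 7.60 CPM in WT and 33.4 and 27.7 in KO1 (log2 fold change 2.23, standard error 0.23, edgeR adjusted p = 5.04e-11). Wnt10a, a secreted Wnt ligand, rose (log2 fold change 2.21), as did Scube3, a secreted protein with EGF-like domains (2.25), and Pik3ap1, an adaptor of PI3-kinase (2.37). The metabolic genes Cyp7b1, an oxysterol 7α-hydroxylase of bile acid synthesis, and Ugt2b35, a glucuronosyltransferase, rose (2.38 and 2.24). All 10 of these genes were called under every alternative that was run.

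Of the 10 largest falls by the same rule, those of Rhox5 and Crisp1 came first. Rhox5, a homeobox gene of the X chromosome (chromosome X, from 37804842 to 37808876 on the plus strand of GRCm38), had 906 and 554 counts in WT and 7 and 1 in KO1, or 258 and 234 CPM in WT and 1.43 and 0.866 in KO1 (log2 fold change -7.50, standard error 0.2, edgeR adjusted p = 9.04e-34). Crisp1, for a cysteine-rich secretory protein, had 411 and 224 counts in WT and 9 and 2 in KO1 (log2 fold change -5.85, standard error 0.23, edgeR adjusted p = 1.63e-26). With so few counts left in KO1, the size of both log2 fold changes is uncertain, while the WT counts are not low. The standard errors are back-calculated from the edgeR test. They understate the uncertainty where KO1 counts are so low, in these genes and in Mmp10 below. Mmp13, a collagenase, fell, with 557 and 484 CPM in WT and 18.7 and 35.5 in KO1 (log2 fold change -4.55, standard error 0.123, edgeR adjusted p = 1.3e-33), and Mmp10, stromelysin-2, likewise, with 61.3 and 51.5 in WT and 1.84 and 6.93 in KO1 (log2 fold change -4.31, standard error 0.262, edgeR adjusted p = 5.81e-19). These matrix proteases moved against Mmp9, which rose. Col12a1, for collagen XII, had 134 and 82 counts in WT and 9 and 3 in KO1, and Kyat3, a kynurenine aminotransferase, had 226 and 170 counts in WT and 20 and 7 in KO1. Serpinb2, an inhibitor of plasminogen activators, fell (log2 fold change -3.66), as did Capg, an actin-capping protein (-3.58), and Areg, the EGF receptor ligand amphiregulin (-3.20). Apoe, the apolipoprotein of remnant lipoproteins (chromosome 7, from 19696109 to 19699188 on the minus strand of GRCm38), was the only one of the 10 largest falls with more than 1000 CPM in WT. It had 2839 and 2855 CPM in WT and 202 and 247 in KO1, which is 13.2 times lower (log2 fold change -3.72, standard error 0.0797, edgeR adjusted p = 6.78e-38).

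**Figure D2:**
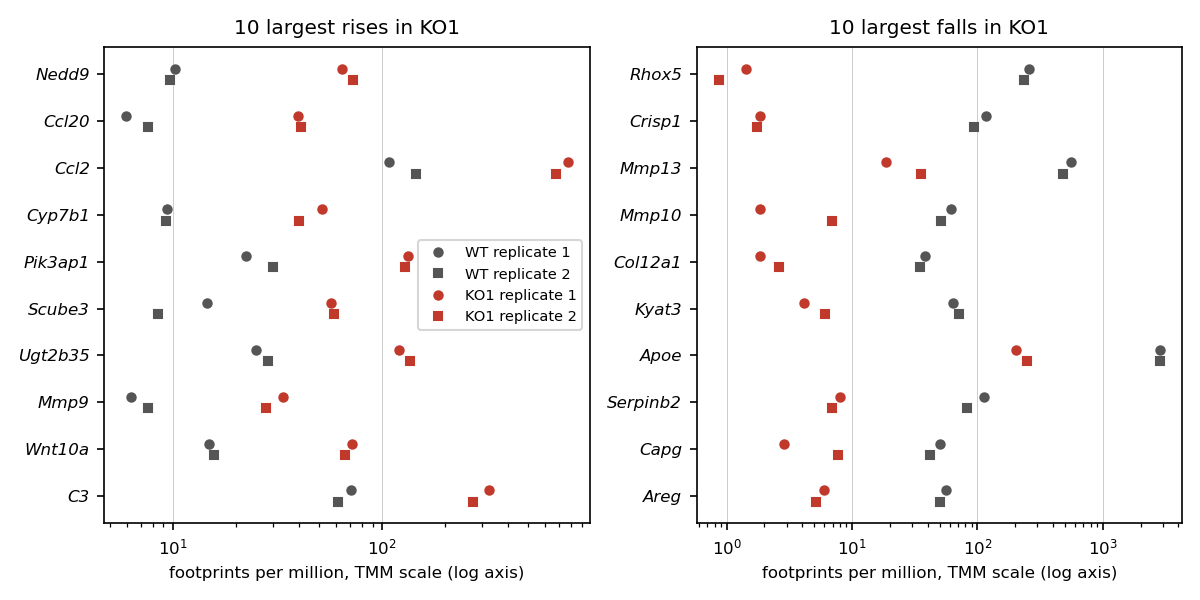
Footprints, in CPM, of 10 genes that rose and 10 that fell, those with the largest log2 fold changes among called genes with a mean of at least 50 counts and no overlap of the lines, on a log axis. Each point is 1 sample, grey for WT and red for KO1, and for Rhox5 and Apoe the 2 KO1 samples lie far to the left of the 2 WT samples.

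Counted in footprints rather than folds, the largest gains were in Sprr1a and Thbs1. Sprr1a, a small proline-rich protein of the cornified envelope, had 7215 and 6754 CPM in WT and 12848 and 11679 in KO1 (log2 fold change 0.81, standard error 0.0678, edgeR adjusted p = 5.61e-14). Thbs1, thrombospondin-1 of the extracellular matrix, had 579 and 616 CPM in WT and 1938 and 1702 in KO1 (log2 fold change 1.62, standard error 0.0689, edgeR adjusted p = 4.18e-25). Genes in this group were taken only from called genes without overlap of the lines, so their lack of overlap is not a result. Ran, the GTPase of nuclear transport, gained 715 CPM and Atp5b, the catalytic subunit of ATP synthase, 584, with log2 fold changes of 0.58 and 0.27. Ctsl, Actg1 and Phgdh were among the largest losses after that of Apoe. Ctsl, the lysosomal protease cathepsin L, had 1831 and 1717 CPM in WT and 436 and 468 in KO1 (log2 fold change -1.99, standard error 0.0695, edgeR adjusted p = 9.42e-29). Actg1, cytoplasmic γ-actin, had 4668 and 4571 in WT and 3430.3 and 3254 in KO1 (log2 fold change -0.47, standard error 0.0642, edgeR adjusted p = 9.26e-08).

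Genes for liver proteins fell in 13 of 20 cases. Of 60 plasma protein genes listed, 40 had too few footprints to be tested in these cells, and of those tested 13 fell and 3 rose (background 15.2% lower, 11.7% higher), with a median log2 fold change of -0.58. All 60 together took 1.16% and 1.12% of all footprints in WT and 0.527% and 0.537% in KO1, so the KO1 samples did not overlap with the WT samples. Apoe, described above, is 1 of the 60 and makes up a large part of this loss. It went from 2839 and 2855 CPM in WT to 202 and 247 in KO1. The 60 genes summed to 11818 and 11234 CPM in WT and 5275 and 5297 in KO1. Alb, serum albumin, had 1418 and 1349 CPM in WT and 552 and 609 in KO1 (log2 fold change -1.27, standard error 0.0678, edgeR adjusted p = 4.46e-21), and Afp, α-fetoprotein, had 1459 and 1313 in WT and 705 and 783 in KO1 (log2 fold change -0.91, standard error 0.0685, edgeR adjusted p = 1.32e-15). Igfbp1, a carrier of insulin-like growth factors, had 465 and 405 in WT and 103 and 94.4 in KO1 (log2 fold change -2.12, standard error 0.087, edgeR adjusted p = 9.23e-26). Trf, transferrin, fell (log2 fold change -1.20), as did Clu, clusterin (-1.17), Fgb, fibrinogen β (-1.47), and Apob, the protein of very low density lipoprotein (-0.43). Among the genes that rose were C3 and Cp, for ceruloplasmin (1.34). All 7 tested hepatocyte and hepatoma markers fell (median -0.91), among them Krt8 and Krt18, the keratins of simple epithelia (-0.72 and -0.64), and 6 of the 7 did so with DESeq2.

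Liver transcription factors went both ways, with 6 of 16 tested lower and 3 higher (background 15.2% lower, 11.7% higher, median -0.31). DESeq2 called 2 lower and 3 higher. Hnf4a, a nuclear receptor that drives hepatocyte genes, had 103 and 113 CPM in WT and 29.3 and 27.7 in KO1 (log2 fold change -1.89, standard error 0.125, edgeR adjusted p = 1.44e-17). Onecut2 had 36 and 24 counts in WT and 6 and 2 in KO1, and Cebpa and Foxa3 fell (log2 fold changes -0.91 and -0.68). Tbx3, a T-box repressor, rose, with 78.9 and 57.5 CPM in WT and 191 and 167 in KO1 (log2 fold change 1.40, standard error 0.106, edgeR adjusted p = 2.08e-15), as did Nr5a2, a nuclear receptor of bile acid genes (1.48). For Tbx3 and Nr5a2 the KO1 samples did not overlap with the WT samples. Of 44 liver enzyme genes, 31 had too few counts, and of the 13 tested 6 fell and 1 rose. Aldh2, which oxidizes acetaldehyde, had 695 and 693 in WT and 498 and 452 in KO1 (log2 fold change -0.53, standard error 0.0676, edgeR adjusted p = 1.55e-08), and Ass1, of the urea cycle, 50.4 and 52.4 in WT and 22.5 and 23.4 in KO1 (log2 fold change -1.17, standard error 0.155, edgeR adjusted p = 3.41e-08).

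Genes of the integrated stress response fell together. This response, set off by phosphorylation of the initiation factor eIF2, slows general translation and raises translation of ATF4, which then raises transcription of genes for amino acid synthesis, amino acid uptake and tRNA charging. Of 33 genes tested, 23 fell and 1 rose (background 15.2% lower, 11.7% higher), and the median was -0.56. Atf4 itself had 111 and 103 CPM in WT and 43.7 and 50.2 in KO1 (log2 fold change -1.25, standard error 0.115, edgeR adjusted p = 1.47e-12), and Atf5, a related factor, 28.5 and 26.2 in WT and 7.38 and 10.4 in KO1 (log2 fold change -1.78, standard error 0.23, edgeR adjusted p = 1.9e-08). In serine synthesis, Phgdh, the first enzyme, had 2063 and 1998 CPM in WT and 1047 and 972 in KO1 (log2 fold change -1.0, standard error 0.0653, edgeR adjusted p = 8.76e-18), and Psat1 and Psph, the next enzymes, fell (log2 fold changes -0.56 and -1.01). Asns, asparagine synthetase, fell, with 318 and 300.4 CPM in WT and 214 and 219 in KO1 (log2 fold change -0.53, standard error 0.0771, edgeR adjusted p = 3.66e-07). For all of these the KO1 samples lay below the WT samples. Cth, cystathionine γ-lyase, fell (-2.19), as did the inhibitory pseudokinase Trib3 (-2.14), at 13.6 CPM on average in WT. Chac1, which degrades glutathione, and Slc7a11, the cystine carrier, both shown above with the ATF4 element, fell (-1.82 and -0.71). The amino acid carriers Slc38a2 and Slc3a2 fell (-0.38 and -0.25), Slc7a5 and Slc1a5 were not called (-0.23 and -0.10), and Slc7a1, the carrier of cationic amino acids, rose (0.22). Ddit3, the factor CHOP, had only 3.11 CPM on average in WT and was not called. The number that fell was 12 with DESeq2 and 15 without WT replicate 1.

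**Figure D3:**
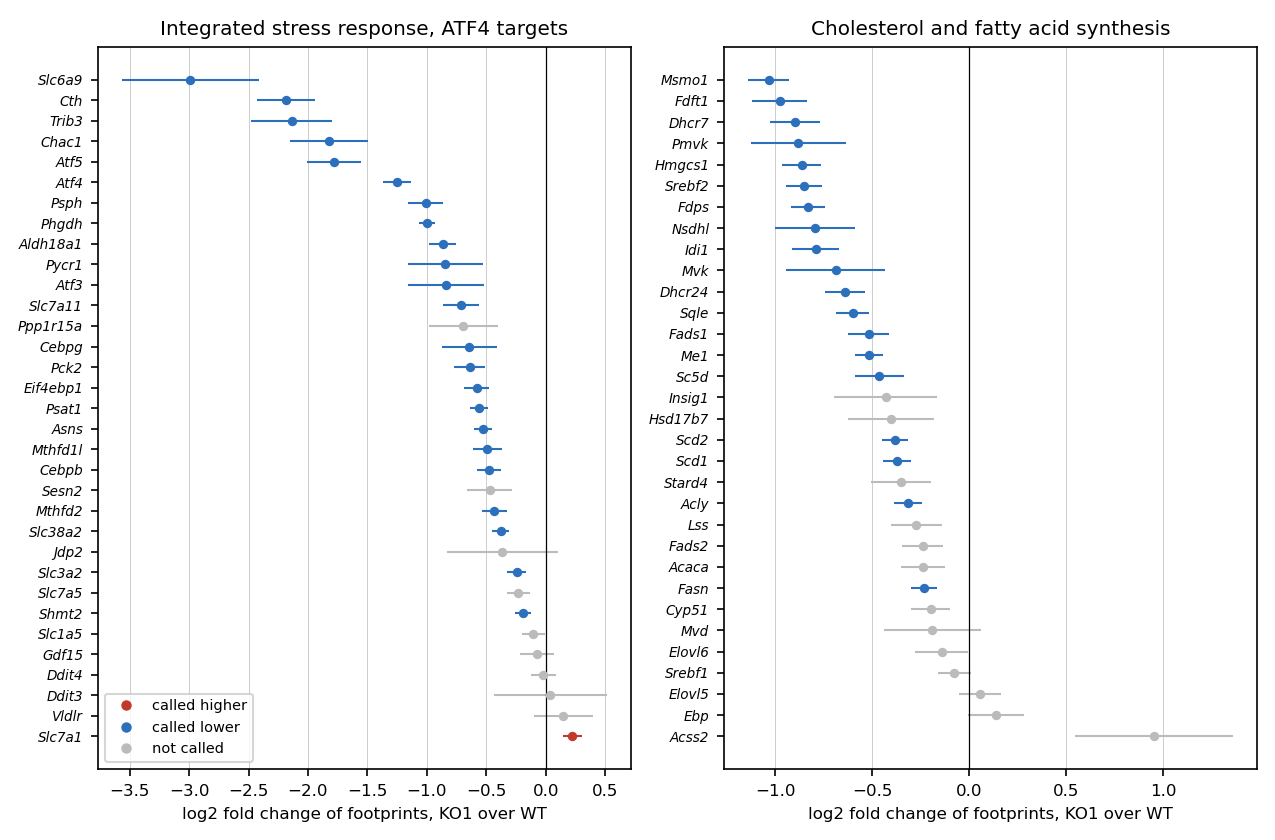
Log2 fold change of footprints in KO1 over WT for the 33 tested genes of the integrated stress response (left) and 32 of the 34 tested genes of cholesterol and fatty acid synthesis (right), with standard errors as bars. Blue marks genes that fell, red genes that rose and grey genes that were not called, and 23 of the genes on the left and 19 of those on the right are blue.

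Genes of cholesterol and fatty acid synthesis also fell. These genes are driven by the transcription factors SREBP2 and SREBP1, which are held at the ER membrane when sterols are plentiful. Of 34 tested, 21 fell and 0 rose at an edgeR adjusted p under 0.05 (background 15.2% lower, 11.7% higher), and the 1 gene with an unadjusted p under 0.05 in the other direction was Acss2, on few counts (0.95, edgeR adjusted p = 0.0764). The median was -0.44, and DESeq2 called 15 lower and 0 higher, while edgeR called 1 higher without WT replicate 1. Msmo1, of the late sterol pathway, had 153 and 161 CPM in WT and 69.5 and 96.1 in KO1 (log2 fold change -1.03, standard error 0.106, edgeR adjusted p = 4.12e-11), and Fdps, which makes farnesyl diphosphate, 282 and 315 in WT and 155 and 196 in KO1 (log2 fold change -0.83, standard error 0.087, edgeR adjusted p = 7.24e-11). Hmgcs1, HMG-CoA synthase, had 156 and 186 in WT and 87.9 and 108 in KO1 (log2 fold change -0.86, standard error 0.101, edgeR adjusted p = 1.69e-09). In all 3 genes KO1 replicate 2 was above KO1 replicate 1, and both were below WT. Srebf2, the gene of SREBP2, fell (log2 fold change -0.85). Srebf1 was not called (-0.08). On the fatty acid side, Scd1 and Scd2, the stearoyl-CoA desaturases, fell (-0.37 and -0.39), as did Fasn, fatty acid synthase (-0.24).

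In the translation machinery, initiation factor genes fell more often than they rose, and the ribosomal protein genes had a median at 0. Of 80 cytosolic ribosomal protein genes, 21 fell, 7 rose and 52 were not called (background 15.2% lower, 11.7% higher), and the median was 0.00. By DESeq2 or without WT replicate 1, WT replicate 2 or KO1 replicate 1, 4 rose. Rps3 had 1413 and 1302 CPM in WT and 979.8 and 852 in KO1 (log2 fold change -0.55, standard error 0.0679, edgeR adjusted p = 5.52e-09) and Rps13 632 and 587 in WT and 419.8 and 397 in KO1 (log2 fold change -0.57, standard error 0.0688, edgeR adjusted p = 3.72e-09), while Rpl21 rose, with 176 and 190.1 in WT and 273 and 286 in KO1 (log2 fold change 0.60, standard error 0.0799, edgeR adjusted p = 3.78e-08). Many ribosomal protein genes have near-identical pseudogenes, so their counts are uncertain where reads fit several places. Of 35 initiation factor genes, 14 fell and 2 rose (same background, median -0.09), and 8 fell by DESeq2 and 9 without WT replicate 1 or without KO1 replicate 1. Among those that fell were Eif3c, Eif3d, Eif3e, Eif3f, Eif3g, Eif3k and Eif3l, subunits of eIF3, which binds the small ribosomal subunit, and Eif3c fell most of them, with 908 and 929.9 CPM in WT and 459 and 490.1 in KO1 (log2 fold change -0.96, standard error 0.0673, edgeR adjusted p = 9.88e-17). Eif3b rose (log2 fold change 0.37), and Eif3a was not called (0.17). Of 20 cytosolic aminoacyl-tRNA synthetases, 8 fell and 1, Vars, rose (same background), and 5 fell by DESeq2 or without KO1 replicate 1. Cars, for cysteine, had 322 and 308 CPM in WT and 92.2 and 116 in KO1 (log2 fold change -1.68, standard error 0.0903, edgeR adjusted p = 5.36e-21), and Wars, for tryptophan, 119 and 102 in WT and 65.8 and 64.9 in KO1 (log2 fold change -0.77, standard error 0.108, edgeR adjusted p = 1.47e-07). The other synthetases that fell, Qars, Yars, Nars, Lars, Tars and Sars, had log2 fold changes from -0.59 to -0.25. Ribosome biogenesis genes were close to the background, with 6 of 44 higher and 7 lower (3 and 4 without WT replicate 1, 2 and 4 without KO1 replicate 1, 2 and 6 without WT replicate 2), among them Fbl, the methyltransferase fibrillarin (-0.53), and Myc (-0.50).

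Genes of the ER were called in both directions. Against 15.2% lower and 11.7% higher over all genes tested, of 36 genes for targeting, translocation and glycosylation, 7 fell, 4 rose and 25 were not called (median -0.10), and of 26 genes for ER chaperones or the unfolded protein response 7 fell, 3 rose and 16 were not called (median -0.05). Of the first list 4 fell and 2 rose without KO1 replicate 1, and 6 and 2 did so without WT replicate 1. Of the second 3 fell and 1 rose without KO1 replicate 1, 4 and 2 without WT replicate 1, 6 and 1 without WT replicate 2, and 1 and 1 by DESeq2. Stt3b, of the oligosaccharyltransferase, had 164 and 153 CPM in WT and 107 and 86.6 in KO1 (log2 fold change -0.64, standard error 0.0966, edgeR adjusted p = 5.7e-07). Spcs2 and Sec11a, of signal peptidase, fell (log2 fold changes -0.62 and -0.59), and Get4, of the pathway for tail-anchored proteins, rose (0.53). Hsp90b1, the ER chaperone GRP94, rose, with 1350 and 1314 CPM in WT and 1668 and 1654 in KO1 (log2 fold change 0.32, standard error 0.0634, edgeR adjusted p = 9.19e-05). Xbp1 and Atf6, which drive the unfolded protein response, fell (-0.53 and -0.52), and neither was called with DESeq2 (adjusted p = 0.088 and 0.0917).

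Several groups had more rises than falls. Of 48 genes for DNA replication and mitosis, 20 rose and 4 fell (background 11.7% higher, 15.2% lower, median 0.17). Rfc3, of the clamp loader, had 135 and 130.1 CPM in WT and 238 and 216 in KO1 (log2 fold change 0.80, standard error 0.0854, edgeR adjusted p = 1.49e-10), and Mcm2, of the replicative helicase, 336 and 319 in WT and 433 and 430.4 in KO1 (log2 fold change 0.40, standard error 0.0709, edgeR adjusted p = 1.73e-05). Cenpf, a kinetochore protein, rose (log2 fold change 0.52), as did the replication clamp Pcna (0.23). Myc and Ccnd1, for cyclin D1, fell (-0.50 and -0.30). DESeq2 called 8 of this list higher, and edgeR called 12 without WT replicate 1, 11 without WT replicate 2 and 12 without KO1 replicate 1. Of 35 proteasome subunits, 11 rose and 3 fell (same background, median 0.12), with 5 higher by DESeq2, 5 without WT replicate 1 and 6 without KO1 replicate 1. Psme2, of the PA28 activator, had 65.8 and 65.1 CPM in WT and 120.3 and 97.9 in KO1 (log2 fold change 0.80, standard error 0.108, edgeR adjusted p = 5.94e-08), and Psmd1, of the regulatory particle, rose (0.50).

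Of 53 nuclear genes of the respiratory chain, 18 rose and 11 fell (background 11.7% higher, 15.2% lower, median 0.16), with 6 and 4 by DESeq2, 7 and 7 without WT replicate 1, 10 and 9 without WT replicate 2, and 11 and 5 without KO1 replicate 1. Atp5j2, of ATP synthase, had 285 and 276 CPM in WT and 458 and 496 in KO1 (log2 fold change 0.75, standard error 0.0722, edgeR adjusted p = 6.21e-12), and the subunits of complex III Uqcrc1 and Cyc1 fell (log2 fold changes -0.47 and -0.51). In glycolysis, 5 of 18 genes fell and 4 rose, and 3 fell and 1 rose without KO1 replicate 1, and 4 and 2 without WT replicate 1. Aldoa, aldolase A, had 1958 and 1867 in WT and 1204 and 1244 in KO1 (log2 fold change -0.65, standard error 0.0643, edgeR adjusted p = 1.65e-11), Ldha and Pkm fell (-0.53 and -0.41), and Pfkl, a phosphofructokinase, rose (0.38), a call that was lost with DESeq2 (adjusted p = 0.098) and without KO1 replicate 1 (log2 fold change 0.13, edgeR adjusted p = 0.542).

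NRF2 targets and glutathione genes rose in 15 of 33 cases and fell in 6 (background 11.7% higher, 15.2% lower, median 0.22), and DESeq2 called 3 higher and edgeR 9 without either WT replicate and 10 without KO1 replicate 1. Nqo1, a quinone reductase, rose on few counts, with 10 and 5 counts in WT and 42 and 15 in KO1 (log2 fold change 1.89, standard error 0.391, edgeR adjusted p = 0.000163). Srxn1, sulfiredoxin, rose (log2 fold change 1.01), as did Gpx4, the peroxidase of lipid peroxides (0.43). Hmox1, heme oxygenase 1, and Gstm1, a glutathione transferase, fell (-0.77 and -0.69). Of 23 interferon and antigen presentation genes, 9 rose and 2 fell (median 0.27), and DESeq2 called 6 higher. Tapbp, the chaperone of MHC class I loading, had 54.7 and 52.4 CPM in WT and 190.4 and 188 in KO1 (log2 fold change 1.82, standard error 0.101, edgeR adjusted p = 2.12e-20), with no overlap. Ddx58, the RNA sensor RIG-I, rose (1.16), as did Psmb8, an immunoproteasome subunit (1.13) and H2-D1, an MHC class I heavy chain (0.35), while Ifitm2 fell (-0.59). Of 29 p53 targets, 8 rose and 4 fell, and 4 rose by DESeq2 or without WT replicate 1 and 5 without KO1 replicate 1. Ephx1, microsomal epoxide hydrolase, had 82.1 and 62.5 in WT and 222 and 177 in KO1 (log2 fold change 1.49, standard error 0.105, edgeR adjusted p = 1.44e-16), Plk2 rose (0.56), and Cdkn1a, the inhibitor p21, fell (-0.48).

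The cytoskeleton and matrix changed in both directions. Of 34 actin genes, 14 fell and 7 rose (background 15.2% lower, 11.7% higher, median -0.16). By DESeq2 9 fell and 4 rose, without KO1 replicate 1 9 and 4, and without WT replicate 1 9 and 6. Vil1, villin of microvilli, had 214 and 221 CPM in WT and 88.1 and 94.4 in KO1 (log2 fold change -1.28, standard error 0.0916, edgeR adjusted p = 2.59e-16), and Ezr, ezrin, 236 and 258 in WT and 124 and 140.3 in KO1 (log2 fold change -0.93, standard error 0.0871, edgeR adjusted p = 2.19e-12). Vim, vimentin, which the list counts with them although it forms intermediate filaments, fell (log2 fold change -0.87), and Tagln2, transgelin-2, rose (0.56). Of 29 matrix and adhesion genes, 10 rose and 9 fell. Hspg2, perlecan, had 361 and 384 in WT and 844 and 763 in KO1 (log2 fold change 1.12, standard error 0.0691, edgeR adjusted p = 9.24e-19), and Agrn and Col18a1, also of basement membranes, rose (0.86 and 1.01). The integrin chain Itga6 and the laminin chain Lamb1 fell (-1.01 and -1.02), and Itga5 and Itgav rose (0.76 and 0.69). Of 14 YAP and TEAD target genes, 6 fell and 3 rose. Ccn2, connective tissue growth factor, had 753 and 689.5 CPM in WT and 176 and 149.8 in KO1 (log2 fold change -2.10, standard error 0.0782, edgeR adjusted p = 1.39e-27), Ccn1 fell (-0.70), and Ankrd1 was not called (0.07). Tubulins (2 of 12 higher, 1 lower) and cytosolic chaperones with the chaperonin CCT (4 of 26 higher, 4 lower) were near the background. Of the tubulins, 0 rose without KO1 replicate 1 and 4 without KO1 replicate 2. Of the chaperones, 2 rose and 1 fell without WT replicate 1, 1 and 1 without KO1 replicate 1, and 2 and 4 without WT replicate 2 or without KO1 replicate 2. Cct8, of CCT, fell (-0.53), and Tubb6 was the tubulin that fell (log2 fold change -0.18, standard error 0.0714, edgeR adjusted p = 0.0497), a call that was lost under 9 of 14 alternatives, among them DESeq2 and leaving out WT replicate 1 or KO1 replicate 2.

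**Figure D4:**
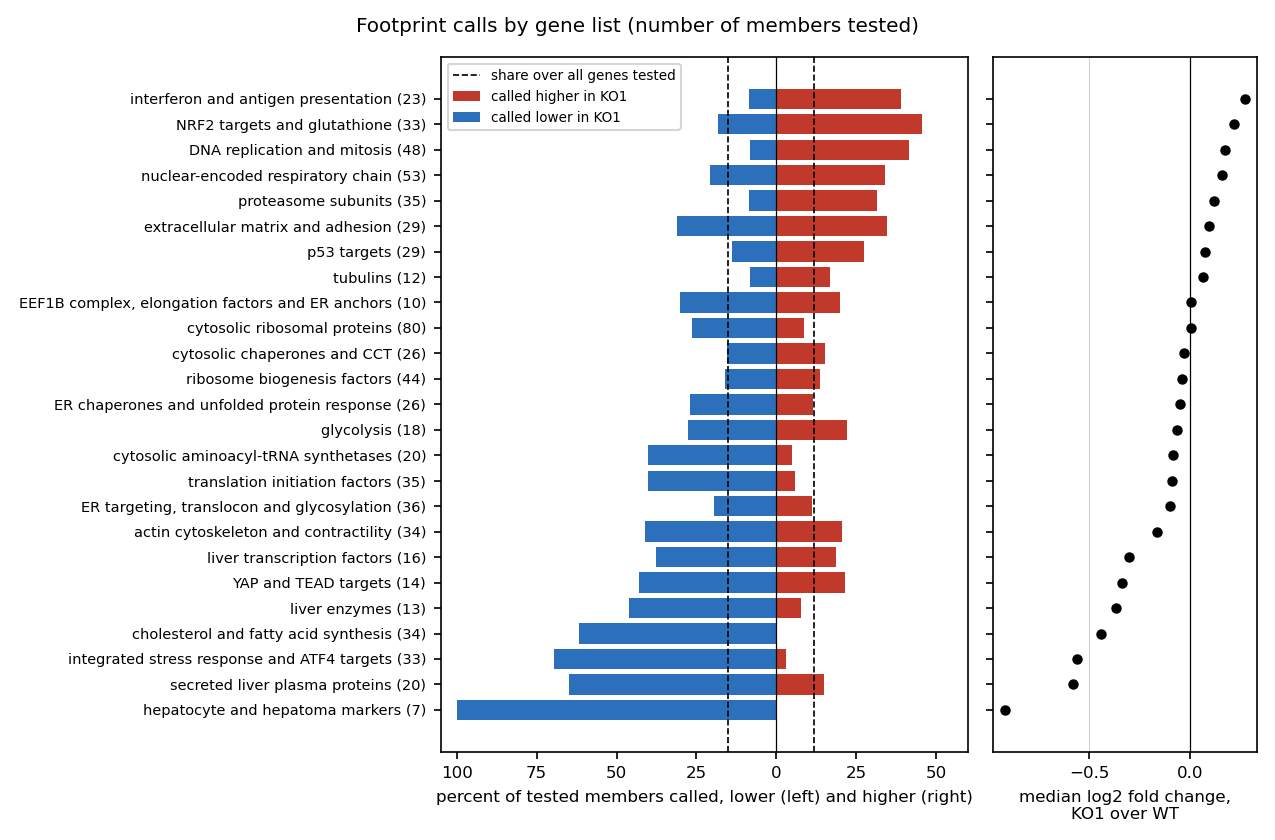
Percent of the tested members of each gene list that were called lower (blue, to the left) or higher (red, to the right) in KO1, with the shares over all genes tested, 15.2% and 11.7%, as dashed lines, and the median log2 fold change of each list on the right. The hepatoma markers, plasma proteins, ATF4 targets and sterol genes lie at the bottom with medians from -0.91 to -0.44, and the interferon list is at the top with 0.27.

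RNA-seq of the same lysates gave a separate library for the same genes, though not a separate culture. RNA was called for 5376 of 11515 genes (46.7%), 2540 higher (22.1%) and 2836 lower (24.6%). For ATF4 targets, RNA of 30 of 34 genes fell, with a median of -0.56. For cholesterol and fatty acid synthesis, RNA of 30 of 35 genes fell, with a median of -0.60. The RNA log2 fold change was -3.69 for Apoe, 1.46 for Thbs1, 2.24 for Ccl2, -5.28 for Mmp13 and -1.03 for Phgdh, against -3.72, 1.62, 2.56, -4.55 and -1.0 in footprints.

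Whether footprints changed beyond RNA was tested as the interaction of line and assay over 8 samples, which was called for 11 of 11680 genes (0.0942%), 5 toward more and 6 toward fewer footprints per RNA, and 827 had an unadjusted p under 0.05. DESeq2's likelihood ratio test called 19. With the Ribo-seq and RNA-seq samples of the same line and number blocked as 1 lysate, edgeR called 83. With edgeR, 2 were called without WT replicate 1 of RNA-seq, and 7 without WT replicate 1 of Ribo-seq or without replicate 2 of WT or of KO1 in RNA-seq. Fn1, fibronectin (chromosome 1, from 71585520 to 71653172 on the minus strand of GRCm38), had 1892 and 1998 CPM in WT and 2592 and 2332 in KO1 and rose (log2 fold change 0.35), while its RNA fell (-0.29), a difference of 0.64 (standard error 0.074, edgeR adjusted p = 1.07e-05). Hspg2, another large matrix protein, rose in footprints (1.12) and in RNA (0.72), a difference of 0.41 (edgeR adjusted p = 0.037). Actg1 and Trf fell less in footprints than in RNA, with log2 fold changes of -0.47 against -0.95 for Actg1 and -1.20 against -1.75 for Trf (edgeR adjusted p of the difference 0.000206 and 0.00326). In the other direction, Ptma, the nuclear protein prothymosin α, was not called in footprints (-0.16) and rose in RNA (0.33), a difference of -0.49 (edgeR adjusted p = 0.000684). Arpc1b, of the Arp2/3 complex, stood at 0.01 and 0.50 (edgeR adjusted p = 0.00365), and Rpl41 rose in footprints (0.42) and in RNA (0.84), with an edgeR adjusted p of the difference of 0.0101. Actg1, Ptma and Rpl41 have close copies in the genome, and their counts are uncertain in either assay. The remaining 4 of the 11 fell outside the rule for named genes and were chosen after their values were seen. Rps20, a ribosomal protein, had changes of -0.08 in footprints and 0.36 in RNA (edgeR adjusted p of the difference 0.0101). Tpm3-rs7, a sequence related to the tropomyosin gene Tpm3, had -0.14 and 0.39 (0.045). The limit given above for genes with close copies applies to Rps20 and Tpm3-rs7 as well. The other 2 rest on few footprints. Glipr1 had 80 and 55 footprints in WT and 1 and 1 in KO1 (edgeR adjusted p = 0.0101), and Kcnh2, a potassium channel gene whose RNA counts were too low to be tested alone, had 5 and 6 footprints in WT and 24 and 17 in KO1 (edgeR adjusted p = 0.0352).

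**Figure D5:**
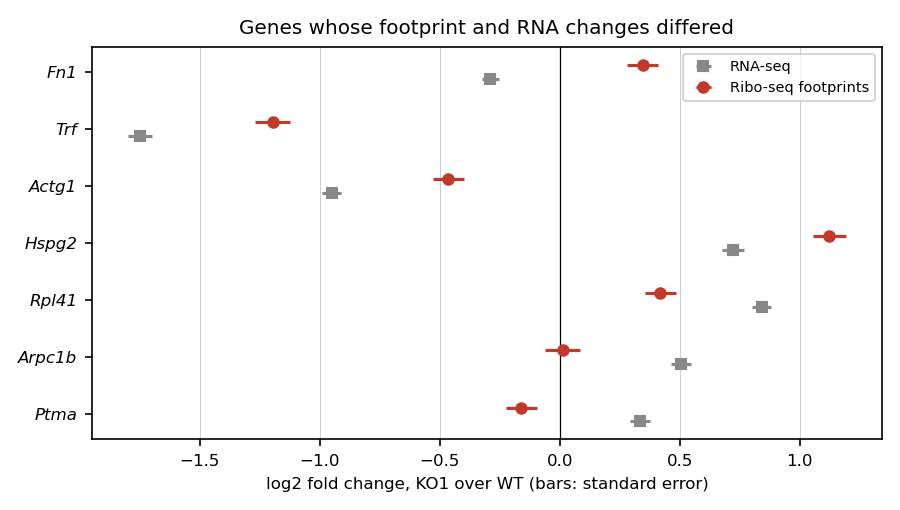
Log2 fold change in KO1 over WT of RNA-seq counts (grey squares) and of Ribo-seq footprints (red circles) for 7 genes in which these changes differed, with standard errors as bars. Fn1 lies at 0.35 in footprints and -0.29 in RNA, and Ptma at -0.16 and 0.33.

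Whether a level belongs to KO1 or is shared by exon 5 KO clones was asked by setting KO1 against the mean of KO2 and KO3 over all 8 Ribo-seq samples. The same KO1 samples enter this test and the comparison with WT, so the tests are not independent of each other. Footprints differed for 4578 of 10763 genes (42.5%), 2279 higher in KO1 (21.2%) and 2299 lower (21.4%), and 2063 did without KO1 replicate 1. Apoe was between 2805 and 3689 CPM in the KO2 and KO3 samples, normalized over the 8 samples, and KO1 was lower than their mean, with a log2 difference of -3.86 (edgeR adjusted p = 2.16e-34). Atf4 was between 119 and 169.6 there, and the log2 difference of KO1 was -1.64 (edgeR adjusted p = 2.07e-17). Of 34 ATF4 targets, 25 were lower in KO1 than in the mean of KO2 and KO3 and 2 higher, with a median of -0.65. Of 35 sterol and fatty acid genes, 23 were lower than that mean (median -0.56). The test does not show that a gene was lower than in each of the other clones.

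Rhox5, Aldh2 and Gstm1 were not set apart from the other clones by this test. Rhox5 was between 0.247 and 1.68 CPM in KO2 and KO3, against 7 and 1 counts in KO1 (edgeR adjusted p = 0.136), and no fold is given between levels so close to 0. Aldh2 was between 482 and 509 there, with a difference of -0.05 (standard error 0.0583, edgeR adjusted p = 0.522), and Gstm1 had a difference of 0.05 (edgeR adjusted p = 0.711). KO2 and KO3 themselves differed for Gstm1, which stood between 33.6 and 118. The clones also spread around WT: Alb was between 736 and 3024 in KO2 and KO3 and Ccl2 between 10.6 and 215, so a mean of the other clones does not stand for each of them. Capg fell in KO1 and was also low in KO2 and KO3, between 6.16 and 19.1, with KO1 below their mean (log2 difference -1.41, edgeR adjusted p = 0.000505).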

How the data were processed

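Cells were lysed by the authors in buffer with cycloheximide, and they made Ribo-seq and RNA-seq libraries from the same lysates. Reads were trimmed with fastp 0.21.0, reads matching noncoding RNA were removed with STAR 2.7.0a, and the rest were aligned to mm10 with STAR and assigned by GENCODE vM23 (tools and build also per the submitters' processing notes). The deposited values are raw counts, whole numbers, counted by the authors at the A-site on the coding sequence of each of 67139 transcripts, without the first and last 5 codons and without normalization or pooling. The labels give both polyA RNA and rRNA depletion for RNA-seq, and which of them selected the RNA can alter its counts. Footprint linkers carried molecular identifiers, but their use in counting is not given in the sources used here. No column of samples was left unused.

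Here 1 transcript per gene was kept (15373 genes have more than 1; reads on shared exons count on each). Counts were tested with edgeR 4.0.16 in R 4.3.3 (TMM, filterByExpr, quasi-likelihood test, Benjamini-Hochberg adjusted p under 0.05 over all genes tested), with DESeq2 1.42.0, another scaling, other filters, thinning, blocks and left-out samples as alternatives, and the scripts were tested on simulated data. Levels are CPM on the TMM scale. Standard errors given with edgeR are the absolute log2 fold change divided by the square root of the F statistic of the quasi-likelihood test. Genes with few counts are measured less precisely: the median standard error of the log2 fold change was 0.362 in the group of genes with the fewest counts and 0.0853 in that with the most (5 groups of equal size). Positions are those of GENCODE vM21 (GRCm38), matched by transcript ID. Python 3.11.15, pandas 2.3.3 and matplotlib 3.10.9 were used for tables and figures.

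Named genes, 134 in all, are the EEF1 list and those picked as follows. The 10 largest log2 changes in each direction were taken among called genes with a mean of at least 50 counts and no overlap. The 5 largest differences in CPM in each direction were taken among called genes with no overlap. Up to 4 called genes with the smallest p were taken per list (2 by count where none was called). Up to 6 genes came from the interaction test. Other list members in the text were chosen after their values were seen. The comparison and the gene lists were chosen with earlier results of these data known. Results of some of these genes are not reported here.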

Additional observations from a re-analysis of the deposited data

Results flagged for a closer look

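The footprint change of KO1 differed from the mean change of the other clones in 4578 of 10763 genes by edgeR's test of that difference, and in 124 of the 133 named genes tested. For 16 of them every KO2 and KO3 sample also lay on the other side of WT from KO1. Those higher in KO1 than in the mean of KO2 and KO3 had log2 differences of 5.70 (Mmp9), 3.43 (Csf1r), 2.56 (Cyp7b1), 0.75 (Ran) and 0.73 (Psmd3). Those lower in KO1 had differences of -3.86 (Apoe), -3.17 (Onecut2), -2.40 (Atf5), -1.64 (Atf4), -1.11 (Fdps), -0.93 (Vim), -0.79 (Eif3d), -0.69 (Rps13), -0.60 (Amotl2), -0.58 (Actg1) and -0.54 (Bop1). Csf1r rests on 20 or fewer footprint counts per sample. The share of all tested genes with this pattern was not counted, and many named genes were chosen for their distance between KO1 and WT. In some of the 16 the other clones lay barely beyond WT. The highest WT sample and the lowest of KO2 and KO3 were at 245.0 and 245.5 CPM for Amotl2, 197 and 199 for Vim, and 163 and 165 for Bop1. For Apoe they were at 2796 and 2805. For Cyp7b1 the lowest WT sample was at 9.10 CPM and the highest of KO2 and KO3 at 9.03. Mmp9 lay between 6.16 and 7.45 CPM in WT, between 27.4 and 33.1 in KO1, and between 0.247 and 1.51 in the other clones, normalized over the 8 Ribo-seq samples.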

How the results depend on the processing

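Of the 124 named genes called in footprints, 0 changed direction under the 14 alternatives in which they were tested (112 to 124 genes each). DESeq2 called 859 genes for KO1 against WT, 339 higher and 520 lower, and thinning to the smallest total gave 1496, 648 higher and 848 lower. Leaving out 1 sample at a time gave 1381 to 2806 genes, 589 to 1208 higher and 792 to 1598 lower, with the fewest without KO1 replicate 1 and 1581 without WT replicate 1. For KO1 against the other clones, DESeq2 called 2553 genes, thinning 2725, and leaving out 1 sample 2063 to 4594, with the fewest without KO1 replicate 1. For the interaction, no filter gave 20 calls, DESeq2 19, a replicate block 56, a lysate block 83 and leaving out 1 sample 2 to 16, with 2 without RNA-seq WT replicate 1 and 7 without Ribo-seq WT replicate 1, RNA-seq WT replicate 2 or RNA-seq KO1 replicate 2. The labels give only replicate numbers. Replicate differences of WT and KO1 correlated across 4014 genes with r of 0.202 in Ribo-seq and 0.2995 in RNA-seq, and a replicate block gave 3160 footprint, 5950 RNA and 4826 clone calls. Genes that were not called changed sign: the log2 fold change of Eef1b2 was 0.00257 with DESeq2 size factors, 0.0198 with total counts, 0.00397 without a filter, 0.00183 with DESeq2, 0.00700 with 8 samples in 1 fit and -0.0566 to 0.0582 with 1 sample left out. That of Eif5a was -0.00789 with thinning and -0.0100 to 0.0301 with 1 sample left out, and with 1 sample left out Eef1g was -0.0527 to 0.0656, Ktn1 -0.248 to 0.105 and Arpc1b -0.0593 to 0.0491. The cause of these differences was not tested. Depth limits the genes with few counts, of which a smaller share was called.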
